A study of Mus musculus with 10 samples.

Results

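The Rab GTPases were described here as every gene on the array whose platform symbol is Rab followed by a number and at most one letter from a to d. This rule, which uses names and no measured value, found 59 genes with 112 probes, among 19057 genes with 34885 probes of a single symbol. The 10 arrays measured total RNA of cultured 4T1 mouse mammary carcinoma sublines, 4 from brain metastases (B1 to B4), 3 from lung metastases (L1 to L3) and 3 from primary tumours (P1 to P3, called T in the study's text). All sublines descend from luciferase-tagged 4T1 cells grown in BALB/c mice and were kept in culture for a few passages before RNA extraction, and the study describes them as independently isolated. By the study's methods, primary tumours were digested with collagenase and DNase, whereas lungs and brains were dissociated through a sieve. This step goes with the origin in both comparisons with P, and its part in them was not tested. GEO's design text calls the inoculation orthotopic, whereas the study's methods describe a subcutaneous one. The mice were females of 6 to 8 weeks with an intact immune system. A passaged culture is a model of the cells that grew out of a site, and not of all tumour cells there.

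Rab proteins are small GTPases of the Ras superfamily that mark membrane compartments and recruit the motors, tethers and fusion factors of vesicle traffic. Exchange factors load them with GTP, GTPase-activating proteins switch them off, and prenylation by Rab geranylgeranyl transferase anchors them in membranes, from which GDI proteins extract them. Some are needed in every cell, such as Rab1 and Rab2 between the endoplasmic reticulum and the Golgi or Rab5 and Rab7 along the endocytic route, while others serve polarised or secretory cells, such as Rab17 and Rab25 in epithelia, Rab3 on secretory granules and Rab27 in exocytosis of granules and exosomes.

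A probe was taken as detected on an array where its detection p was 0.01 or less. By this measure 45 Rab genes had a detected probe, against 9486 genes in all, and the probe standing for the gene was detected on all 10 arrays for 36 of them and on some arrays for 9. The 14 genes with no detected probe were *Rab2b*, *Rab26*, *Rab30*, *Rab33a*, *Rab36*, *Rab37*, *Rab38*, *Rab39*, *Rab3b*, *Rab3c*, *Rab40b*, *Rab42*, *Rab44* and *Rab9b*. They include 5 of the 10 Rabs of regulated secretion and lysosome-related organelles on the platform. Of the 17 Rabs of the endoplasmic reticulum and Golgi, 6 were among them. None of the 9 Rabs of early endosomes and none of the 12 of recycling endosomes and polarised transport were among them. Over the whole array, 9486 of 19057 genes had a detected probe. The undetected shares of the secretion and Golgi lists were therefore not above that of all genes. Values below are background-corrected, quantile-normalised log2 intensities. An offset added before the logarithm makes folds of dim probes too small. The level of one probe is not compared with that of another, because probes differ in brightness for reasons other than transcript abundance.

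The arrays were alike in depth of signal, with 14796 to 15563 probes detected in B, 14764 to 14938 in L and 14218 to 14635 in P, and no array was a copy of another. Among mammary epithelial markers *Cdh1*, *Krt8*, *Krt18*, *Krt14* and *Krt19* were detected while *Epcam* and *Krt5* were not. Endothelial and lymphocyte markers were detected on no array. Of 7 astrocyte markers *Gja1* was the only one detected, with a normalised level of 10346 to 11144 in B, 9059 to 11175 in L and 10033 to 10624 in P, whereas *Gfap* and *Aqp4* were not. Of 7 fibroblast and pericyte markers *Dcn*, *Pdgfra* and *Pdgfrb* were detected, and their summed level was 699 to 2911 in B (highest in B3), 389 to 636 in L and 170 to 277 in P. Of 10 macrophage markers *Lyz1* and *Lyz2* were detected, with sums of 44.0 to 59.6 in B, 332 to 629 in L and 46.6 to 349 in P. Neither was detected on any B array, so the B sums are background. The part of other cell types in the differences below was not tested, and in such bulk RNA fewer cells of a type and less RNA per cell cannot be told apart.

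In B against P sublines, 4 Rab genes were higher (*Rab3d*, *Rab6b*, *Rab3a* and *Rab31*) and 1 was lower (*Rab25*) at a Benjamini-Hochberg adjusted p under 0.05 in limma. This is 5 of 45 tested (11.1%), against 14.4% of all 9352 genes tested (7.53% higher and 6.91% lower), so the share was not above the background. The groups did not overlap for 13 Rab genes, against 30.5% of all genes. The median difference was 0.21 over the Rab genes and -0.01 over all genes, with 32 Rab genes above 0 and 13 below.

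In B against L sublines, *Rab31* and *Rab3a* were higher and *Rab25* and *Rab15* were lower. These 4 of 45 (8.89%) compare with 8.07% of the 9423 genes tested, of which 3.83% were higher and 4.23% lower. The groups did not overlap for 12 Rab genes, against 24.9% of all genes, and the median difference was 0.15 for the Rab genes and 0.00 for all genes tested. Replicate numbers paired B with L by the correlation of their deviations, and with the number as a block *Rab31* (adjusted p = 0.058) and *Rab3a* (adjusted p = 0.061) no longer passed, while *Rab3d* (difference 0.92, adjusted p = 0.043) and *Rab27a* (difference 0.77, adjusted p = 0.049) did.

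In L against P sublines no Rab gene passed among 43 tested, against 0.412% of the 8974 genes tested. At an unadjusted p under 0.05, 6 were higher and 1 was lower, against 8.3% higher and 6.49% lower among all genes, and the methods' t-test with a random variance model, adjusted in the same way, also called 0. The median difference was -0.02 for the Rab genes and -0.01 for all genes. B and L sublines were both compared with the same P arrays, and B with the same arrays in both of its comparisons, so these results share samples.

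**Figure D1:**
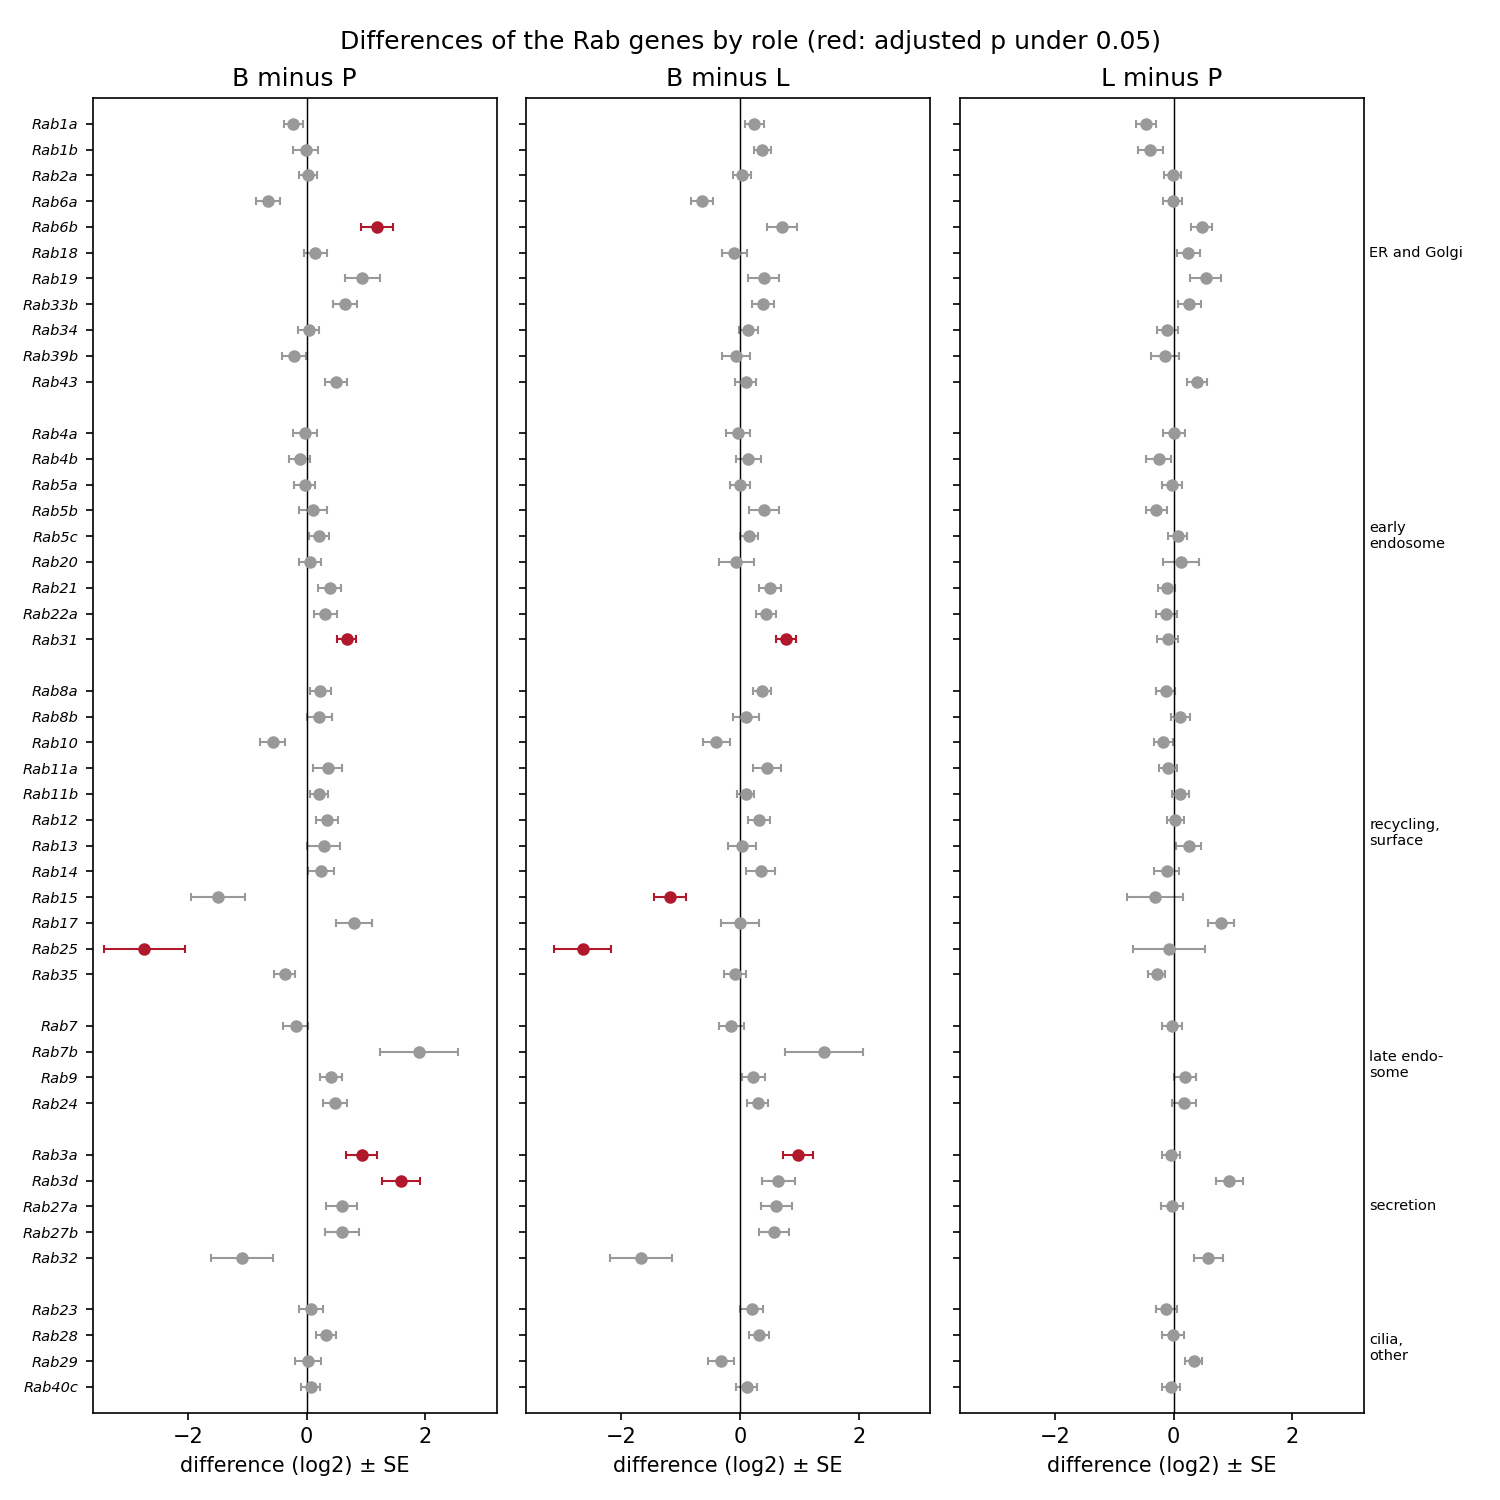
Differences of the tested Rab genes on the log2 scale with their standard errors, in B minus P, B minus L and L minus P, grouped from top to bottom by the compartment each Rab is known for. Red points passed an adjusted p under 0.05, and most others lie within 0.5 of 0, with *Rab25* the farthest to the left in both B comparisons.

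*Rab25*, an epithelial relative of Rab11 that acts at apical recycling endosomes, had the largest difference of any Rab gene in both comparisons of B. Its log2 values were 6.10, 6.91, 4.61 and 6.20 in B, 8.23, 8.32 and 9.27 in L, and 9.98, 9.04 and 7.04 in P, and on B3 it was not detected. Every B value lay below every L and P value, and P3, the lowest of the P arrays, was nearest to B. The difference was -2.65 ± 0.48 (SE) against L (6.30-fold lower, adjusted p = 0.014) and -2.73 ± 0.69 against P (6.65-fold lower, adjusted p = 0.030), while L and P differed by -0.08 ± 0.61. A second probe, not detected on any B array, gave -1.95 against L (adjusted p = 0.0076 over probes) and -1.97 against P (adjusted p = 0.051). Its B values are background, so the size of these differences was not measured. The call against L was lost without L2 or L3 (adjusted p = 0.061 to 0.062), and that against P without B1, P1 or P2 (adjusted p = 0.066 to 0.12).

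The Rab11 paralogs of *Rab25*, which act at recycling endosomes of most cells, did not pass. *Rab11a* was at 8.72, 9.41, 8.56 and 8.42 in B, 8.35, 8.28 and 8.34 in L, and 8.63, 8.24 and 8.40 in P. Its B values all lay above those of L but overlapped those of P, and the differences were 0.45 ± 0.23 against L (adjusted p = 0.26) and 0.36 ± 0.24 against P (adjusted p = 0.35). *Rab11b* stood within 12.48 and 12.98 on all 10 arrays, and its differences were 0.09 against L and 0.20 against P.

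*Rab15*, which acts at early and recycling endosomes, was detected on all 3 L arrays and on P2 and P3, but not on P1 or on any B array. Its values were 5.06, 4.59, 4.61 and 5.38 in B, 5.90, 6.62 and 5.77 in L, and 5.21, 7.44 and 6.57 in P, so that B lay below L throughout, whereas P1 fell among the B values. The measured difference from L was -1.18 ± 0.27 (adjusted p = 0.030). Because B holds only a bound, L was at least 1.32-fold higher than B, where the bound sets the mean of L against the dimmest probes detected on each B array. Against P the difference of -1.49 ± 0.45 did not pass (adjusted p = 0.054). Leaving out B1, B2 or any of the L arrays ended the call against L (adjusted p = 0.056 to 0.13), and in the authors' processed values it did not pass.

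*Rab31*, an early endosomal Rab of the Rab5 group that also serves traffic between the trans-Golgi network and endosomes, was bright on all arrays. It reached 12.27, 12.49, 12.29 and 12.18 in B, 11.46, 11.33 and 11.79 in L, and 11.52, 11.56 and 11.82 in P. The lowest B value stood above the highest value of L and P. The difference was 0.78 ± 0.17 against L (1.71-fold, adjusted p = 0.028) and 0.68 ± 0.16 against P (1.60-fold, adjusted p = 0.026), and -0.10 between L and P. Under median scaling neither call held, and without B1, L1 or L2 the adjusted p against L was 0.062 to 0.13, as it was 0.056 to 0.11 against P without B1 or any of the P arrays. *Rab22a*, its close relative, showed 0.43 ± 0.17 against L (adjusted p = 0.15) and 0.31 ± 0.19 against P (adjusted p = 0.30).

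**Figure D2:**
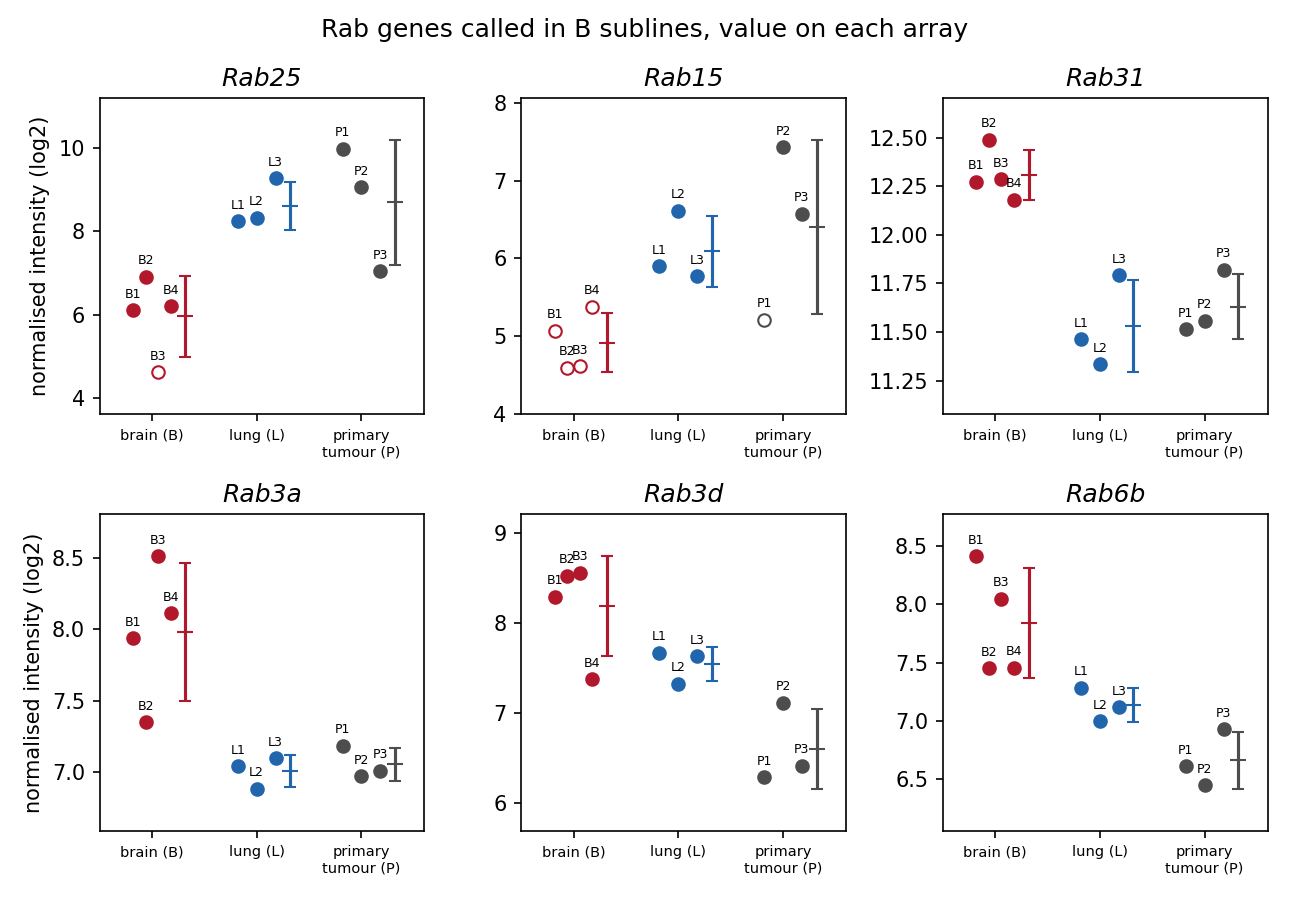
Normalised log2 intensity of the 6 Rab genes called in B sublines, with 1 point per array, B left, L middle and P right, and bars for mean ± SD. Open circles are arrays where the probe was not detected, as on all 4 B arrays for *Rab15*, and the B points of *Rab25* lie below and those of *Rab31* and *Rab3a* above all others.

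*Rab3a* and *Rab3d* belong to the Rab3 group of secretory vesicles, the first best known from synapses and the second from granules of exocrine cells. *Rab3a* was at 7.94, 7.35, 8.51 and 8.11 in B, 7.04, 6.88 and 7.10 in L, and 7.18, 6.97 and 7.01 in P. Every B array was above every other array, with B2 closest to them. The differences were 0.97 ± 0.25 against L (1.96-fold, adjusted p = 0.047) and 0.92 ± 0.25 against P (1.90-fold, adjusted p = 0.041). A second probe, not detected on any P array, gave 0.82 against L (adjusted p = 0.075 over probes) and 1.04 against P (adjusted p = 0.028). Both calls were lost on leaving out any single array of B, L or P other than B2, with adjusted p up to 0.17. Of 8 neuronal markers *Map2* and *Tubb3* were detected, with sums of 409 to 919 in B, 320 to 499 in L and 219 to 549 in P, and their part in this result was not tested.

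*Rab3d* had the smallest adjusted p of the Rab genes in B against P. Its values were 8.29, 8.53, 8.56 and 7.37 in B, 7.67, 7.33 and 7.63 in L, and 6.29, 7.11 and 6.41 in P. B and P did not overlap and L lay between them, with B4 among the L values. B exceeded P by 1.59 ± 0.32 (3.01-fold, adjusted p = 0.015), a call lost without P1 or P3 (adjusted p = 0.061 to 0.072). B exceeded L by 0.65 ± 0.28 (adjusted p = 0.19) and L exceeded P by 0.94 ± 0.22 (adjusted p = 0.11). The last difference passed without P2, with an offset of 50 and with no background correction.

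*Rab6b*, the neuron-enriched form of the Golgi Rab6, ran in the same order. It was at 8.42, 7.45, 8.05 and 7.45 in B, 7.28, 6.99 and 7.12 in L, and 6.61, 6.44 and 6.93 in P, with no overlap between any of the groups. The difference was 1.18 ± 0.26 from P (2.27-fold, adjusted p = 0.020), 0.71 ± 0.25 from L (adjusted p = 0.11) and 0.47 ± 0.17 between L and P (adjusted p = 0.24). The call against P was lost without P1 or P2 (adjusted p = 0.076 to 0.082).

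*Rab6a*, the ubiquitous paralog, did not pass and its 4 detected probes disagreed. The probe standing for the gene gave -0.64 against L (adjusted p = 0.066) and -0.65 against P (adjusted p = 0.060), whereas another gave 0.60 against L (adjusted p = 0.071) and 0.11 against P, and the remaining probes lay between. No direction can therefore be given for *Rab6a* as a gene. *Rab10*, which serves transport to the plasma membrane, had a similar gap, with -0.57 from one probe and -0.03 from the other in B against P. Across the 20 Rab genes with at least 2 detected probes, probes of a gene differed by more than 0.5 in 3 genes in B against P (*Rab25*, *Rab6a* and *Rab10*). In B against L they did so in 2 (*Rab25* and *Rab6a*), and in L against P in 0 of 19. The sign of the difference was not the same for all probes of a gene in 3 genes in B against P, 7 in B against L and 6 in L against P.

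**Figure D3:**
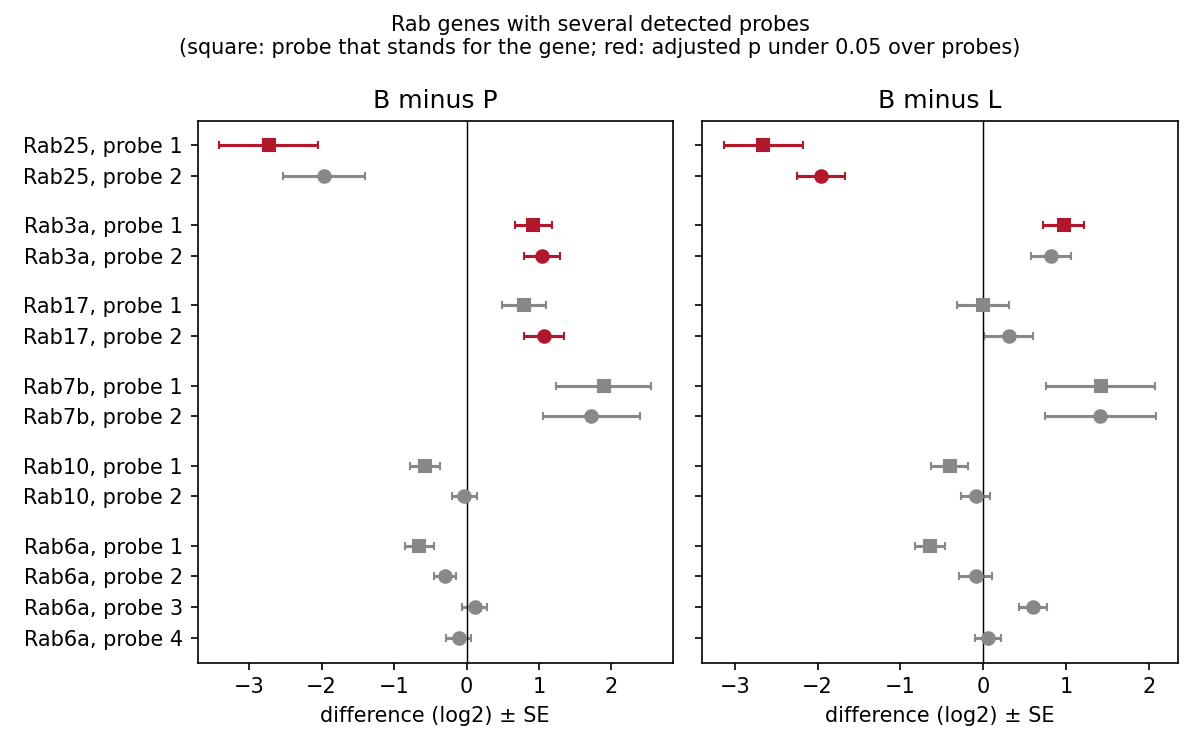
Difference on the log2 scale with its standard error for each detected probe of 6 Rab genes, in B minus P (left) and B minus L (right). Squares mark the probe that stands for the gene and red marks an adjusted p under 0.05 over all probes, and the probes of *Rab6a* fall on both sides of 0.

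Promoter sequences are shown for the genes called in both B comparisons, *Rab25* lower and *Rab31* and *Rab3a* higher. They are RefSeq windows of GRCm38.p6, from 250 bases before to 50 bases after an annotated start, and 48 of the 59 Rab genes had at least 1 window. Both strands were searched for the E-box CACGTG, which reads the same on either strand. They were also searched for the E-box CACCTG, a form bound by Snail and Zeb factors, which on the opposite strand reads CAGGTG. The third motif was the GC box GGGCGG, which on the opposite strand reads CCGCCC. The last pair of motifs was chosen after the values were seen. Capitals mark matches. Rab25 lies at chr3:88548230-88548529 on the minus strand, Rab31 at chr17:65772703-65773002 on the minus strand, and the 2 Rab3a windows at chr8:70754453-70754752 and chr8:70754852-70755151 on the plus strand.
Rab25: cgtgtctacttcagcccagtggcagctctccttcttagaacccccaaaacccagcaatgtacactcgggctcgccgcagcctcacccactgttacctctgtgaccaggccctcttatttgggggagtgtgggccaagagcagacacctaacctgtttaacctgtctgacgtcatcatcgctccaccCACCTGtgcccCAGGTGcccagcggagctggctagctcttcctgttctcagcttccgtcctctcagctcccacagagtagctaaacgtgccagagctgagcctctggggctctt
Rab31: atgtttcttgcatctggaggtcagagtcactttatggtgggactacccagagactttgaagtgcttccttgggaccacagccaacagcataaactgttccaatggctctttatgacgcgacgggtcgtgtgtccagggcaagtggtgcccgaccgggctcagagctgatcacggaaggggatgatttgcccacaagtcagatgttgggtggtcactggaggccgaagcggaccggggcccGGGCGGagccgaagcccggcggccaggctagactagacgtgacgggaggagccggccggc
Rab3a window 1: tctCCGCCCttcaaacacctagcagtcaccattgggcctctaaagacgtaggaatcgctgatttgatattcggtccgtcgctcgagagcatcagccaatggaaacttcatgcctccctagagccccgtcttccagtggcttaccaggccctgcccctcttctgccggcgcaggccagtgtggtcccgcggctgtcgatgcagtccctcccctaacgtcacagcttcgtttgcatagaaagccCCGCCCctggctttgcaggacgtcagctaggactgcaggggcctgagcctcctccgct
Rab3a window 2: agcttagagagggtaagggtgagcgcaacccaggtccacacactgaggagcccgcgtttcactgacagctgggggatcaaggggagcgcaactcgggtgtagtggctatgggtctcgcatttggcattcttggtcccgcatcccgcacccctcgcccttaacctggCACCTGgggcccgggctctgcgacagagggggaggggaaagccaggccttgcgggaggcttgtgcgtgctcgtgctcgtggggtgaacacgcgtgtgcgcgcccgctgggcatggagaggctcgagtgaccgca
The *Rab25* window held 2 CACCTG matches, 0 GC boxes and 9 CpG dinucleotides. The *Rab31* window held 1 GC box, 0 CACCTG matches and 19 CpG dinucleotides, while the first *Rab3a* window held 2 GC boxes, 0 CACCTG matches and 18 CpG dinucleotides, and the second held 0 GC boxes, 1 CACCTG match and 22 CpG dinucleotides. CACCTG was present in windows of 10 of the 48 Rab genes against 22.6% of all genes with a window, GGGCGG in those of 36 of the 48, against 38.2%, and CACGTG in those of 6 of the 48, none of them called, against 8.09%. Counted by window, CACCTG stood in 10 of the 60 Rab windows and in 20.2% of all 32851, and GGGCGG in 41 of the 60 and in 35.7%. The median number of CpG dinucleotides was 19.5 in the Rab windows and 7 in all windows. A match is a description of letters in the window and not of a bound site.

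Several Rab genes had large differences without passing the test. *Rab32*, which acts in the making of lysosome-related organelles, was at 8.14, 9.47, 6.72 and 8.46 in B, 10.33, 9.78 and 9.51 in L, and 9.26, 9.66 and 8.94 in P. Its B values lay below those of L, spread more in B than in L or P and overlapped those of P, and the differences were -1.67 ± 0.53 against L (adjusted p = 0.082), -1.08 ± 0.52 against P (adjusted p = 0.19) and 0.59 ± 0.25 in L against P (adjusted p = 0.30).

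*Rab7b*, a Rab of late endosomes and the trans-Golgi network, was detected on 3 B arrays and on no L or P array. It stood at 5.98, 6.40, 8.81 and 5.44 in B, 5.14, 5.51 and 5.08 in L, and 4.56, 4.79 and 4.96 in P. B3 was the highest for *Rab7b*, and the SD of 1.49 in B was the largest of any Rab gene in that group. That array also had the highest sums of fibroblast and pericyte (2911), mammary epithelial (36718) and neuronal (919) markers of all arrays. The part of such cells in this value was not tested. The measured difference was 1.89 from P (adjusted p = 0.083) and 1.42 from L (adjusted p = 0.21), and neither passed. Set against the dimmest probes detected on each P or L array, the mean of B was 1.75-fold and 1.89-fold higher. That mean rests much on B3, and B4 lay among the L values, so these folds are not lower limits for B as a group. *Rab7*, the general Rab of late endosomes and lysosomes, differed by -0.18 from P and -0.15 from L by the probe standing for the gene. Its other detected probes gave 0.10 and 0.13 from P and 0.12 and 0.03 from L, so no direction is given for it.

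*Rab17*, which serves polarised epithelial transport, and *Rab19*, a Golgi Rab, were dim. *Rab17* was detected on 2 B and 2 L arrays and on no P array, with values of 6.49, 5.70, 5.75 and 5.04 in B, 5.92, 6.03 and 5.30 in L, and 5.22, 4.84 and 4.79 in P. Its differences were 0.79 ± 0.30 in B against P (adjusted p = 0.11) and 0.79 ± 0.22 in L against P (adjusted p = 0.15), with 0.00 in B against L, and a second probe gave 1.07 in B against P (adjusted p = 0.035 over probes). *Rab19* was at 6.67, 6.31, 6.23 and 5.60 in B, 6.10, 5.55 and 5.77 in L, and 4.91, 5.87 and 5.01 in P, with 0.94 ± 0.30 in B against P (adjusted p = 0.065) and 0.54 ± 0.26 in L against P.

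*Rab27a* and *Rab27b*, which dock granules and exosome-bearing endosomes at the plasma membrane, were named after their values were seen. *Rab27a* was at 8.14, 8.90, 8.23 and 7.77 in B, 7.48, 7.96 and 7.51 in L, and 7.86, 7.67 and 7.50 in P. B overlapped both other groups, and the differences were 0.61 ± 0.26 against L (adjusted p = 0.18, or 0.049 with the replicate block given above) and 0.59 ± 0.25 against P (adjusted p = 0.15). *Rab27b* was detected on 2 B arrays and on none of L or P, with differences of 0.57 from L and 0.60 from P that did not pass.

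**Figure D4:**
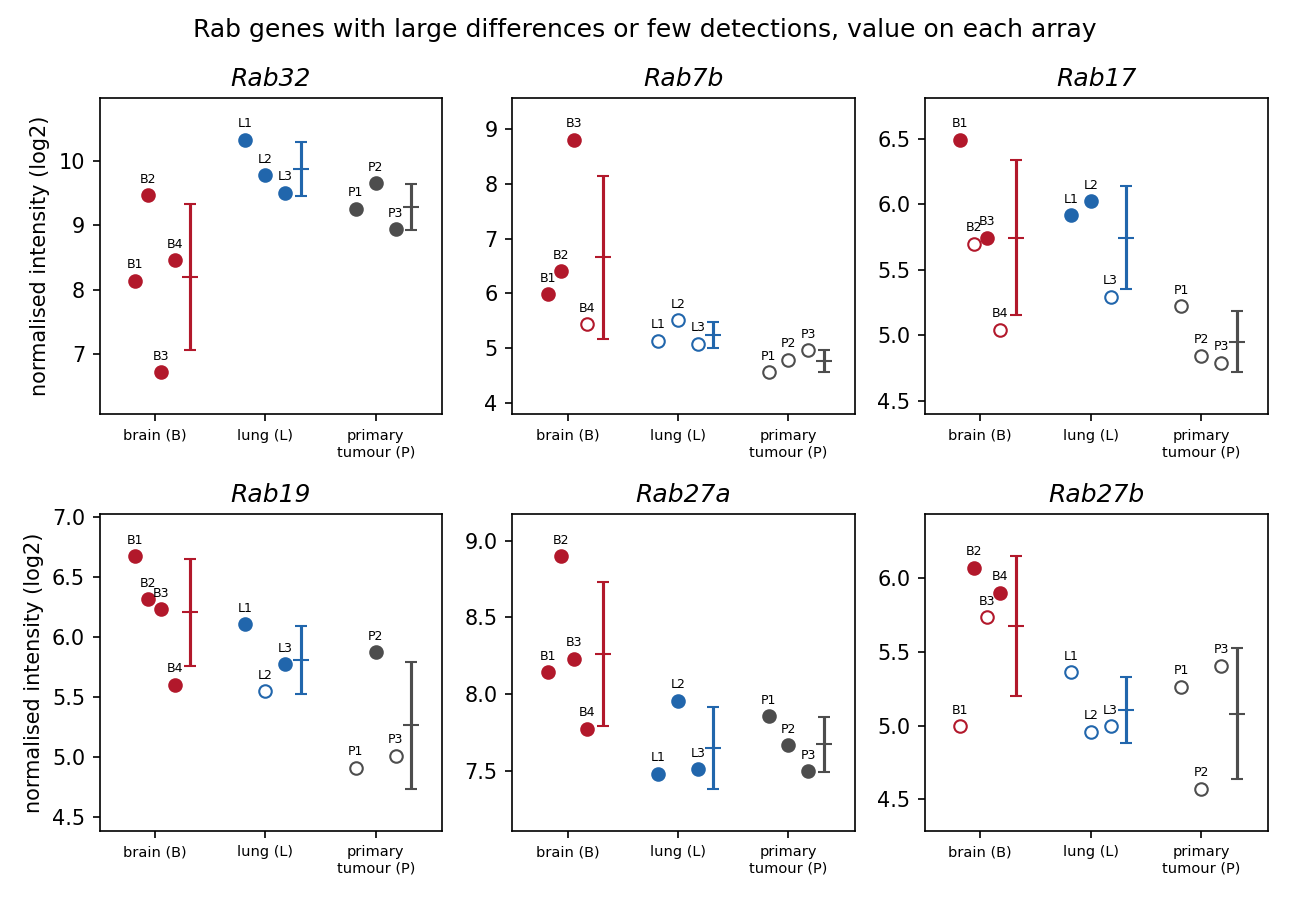
Normalised log2 intensity of 6 Rab genes that were not called, with 1 point per array, B left, L middle and P right, and bars for mean ± SD. Open circles are arrays without detection, and the B3 point of *Rab7b* at 8.81 and that of *Rab32* at 6.72 stand at opposite ends of their groups.

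By compartment, the 11 tested Rabs of the endoplasmic reticulum and Golgi had 1 call in B against P (*Rab6b*) and 0 in B against L, with median differences of 0.03 and 0.14. Over all genes tested, 7.53% were higher and 6.91% lower in B against P, and 3.83% higher and 4.23% lower in B against L. By the probe standing for each gene, *Rab1a*, *Rab1b* and *Rab2a*, which carry the bulk of early secretory traffic, lay between -0.22 and 0.02 in B against P. In B against L they lay between 0.04 and 0.38. Other detected probes of *Rab1a* and *Rab1b* ran from -0.44 to 0.15 in B against P and from -0.21 to 0.41 in B against L. The 9 early endosomal Rabs had 1 call in each comparison (*Rab31*) and medians of 0.11 and 0.15. By the same choice of probe, *Rab5a*, *Rab5b* and *Rab5c*, the master Rabs of early endosome fusion, lay between -0.03 and 0.22 in B against P. In B against L they lay between 0.00 and 0.40. Other *Rab5a* probes gave -0.19 and -0.08 in B against P, and 0.03 and 0.17 in B against L. The 12 Rabs of recycling and surface transport had 1 call in B against P and 2 in B against L, each lower in B, while 8 of the 12 differences from P and 7 of the 12 from L were above 0. Of 5 tested Rabs of secretion and lysosome-related organelles, 2 were higher in B against P and 1 in B against L, with medians of 0.60 and 0.61. The 4 Rabs of late endosomes and the 4 of cilia and other sites had 0 calls at this threshold in either comparison, with 3 of the late endosomal Rabs higher in B against P at an unadjusted p under 0.05, a level that 15.9% of all genes reached in this direction.

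The spread among replicates was of the usual size for these arrays. The median SD of the 45 Rab genes was 0.28 in B, 0.21 in L and 0.22 in P, and over all 9486 detected genes it was 0.28 in B, 0.19 in L and 0.20 in P. The largest SD of a Rab gene was that of *Rab20* in L (0.69) and that of *Rab25* in P (1.50).

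Genes that act on Rabs were taken from lists of 150 other genes of the Rab cycle on the platform. In B against P, 9 were higher and 3 lower among 120 tested (10%), below the 14.4% of all genes. In B against L, 4 were higher and 6 lower among 121 (8.26%), near the 8.07% of all genes, and in L against P 1 was higher among 116 (0.862%), against 0.412% of all genes.

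Of 7 tested genes of prenylation and Rab extraction, *Rabggta*, the alpha subunit of Rab geranylgeranyl transferase, was lower in both B comparisons. It was the only call of this list (14.3%), against 14.4% of all genes in B against P and 8.07% in B against L. It was at 7.83, 7.20, 7.02 and 7.33 in B, 8.55, 8.35 and 8.36 in L, and 7.99, 8.39 and 8.36 in P. All B values were below the rest, B1 by the smallest margin. The difference was -1.07 ± 0.21 against L (adjusted p = 0.018) and -0.90 ± 0.22 against P (adjusted p = 0.028). It lost the call against L without any one of the L arrays (adjusted p = 0.062 to 0.088), and that against P without B2 or any one of the P arrays (adjusted p = 0.0503 to 0.099).

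Of 39 exchange factors 2 were higher and 1 was lower in B against P (7.69%, below the 14.4% of all genes). *Rin2*, an exchange factor of Rab5, was at 10.85, 10.72, 11.17 and 10.40 in B, 10.25, 9.70 and 10.22 in L, and 9.43, 9.43 and 9.55 in P. B lay above L, and L above P, without overlap. The difference from P was 1.31 ± 0.20 (adjusted p = 0.0053), and its call held under all 16 alternatives, at 1.16 to 1.44. *Rin1*, also an exchange factor of Rab5, was lower in B than P by -0.79 ± 0.21 (adjusted p = 0.038), and *Trappc1*, a subunit of the TRAPP complexes, was higher by 0.55 ± 0.15 (adjusted p = 0.039), though leaving out any one array ended the *Trappc1* call (adjusted p = 0.059 to 0.15) and leaving out any array but B4 that of *Rin1* (0.051 to 0.14). In B against L 2 of 39 exchange factors were lower (5.13%, below the 8.07% of all genes). They were *Dennd6b*, known for Rab14 (-0.58, adjusted p = 0.047), and *Ric1*, which acts on Rab6 (-0.64, adjusted p = 0.048). Both calls were lost without any one array other than B4 (adjusted p = 0.070 to 0.16) and with the replicate block (adjusted p = 0.073 for *Dennd6b* and 0.0502 for *Ric1*).

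Of the GTPase-activating proteins 3 of 32 were higher and 1 was lower in B against P (12.5%, below the 14.4% of all genes). In B against L 1 of 33 was higher and 1 lower (6.06%, below the 8.07% of all genes). *Tbc1d2*, which acts on Rab7, was at 7.88, 7.09, 6.52 and 7.96 in B, 8.99, 8.92 and 8.66 in L, and 8.868, 8.982 and 8.996 in P, so that B was lowest throughout and spread most. It was lower by -1.50 ± 0.33 against L (adjusted p = 0.028, lost without B2 or any one of the L arrays at 0.054 to 0.12) and by -1.59 ± 0.33 against P (adjusted p = 0.016, lost without any one of the P arrays at 0.056 to 0.061). *Evi5l*, a GTPase-activating protein described for Rab23, was at 7.47, 7.09, 7.25 and 7.23 in B, 6.41, 6.38 and 6.75 in L, and 6.18, 6.12 and 6.29 in P. Its B values were above all others, by 1.07 ± 0.16 over P (adjusted p = 0.0051) and 0.75 ± 0.17 over L (adjusted p = 0.031). The call against P held under all 16 alternatives, at differences from 0.43 in the authors' processed values to 1.12. That against L was lost without B1 or any one of the L arrays (adjusted p = 0.058 to 0.14) and with the replicate block (adjusted p = 0.062). *Tbc1d9b*, which acts on Rab11 (0.67, adjusted p = 0.046), and *Tbc1d8* (0.89, adjusted p = 0.042) were higher in B than P. Both calls were lost in most fits without 1 array (adjusted p = 0.063 to 0.17). *Tbc1d8* was not detected on B3 or on any P array. Its B mean was 1.09-fold above the dimmest probes detected on each P array, which is not a lower limit because that mean includes B3.

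Of 33 effectors 3 were higher in B against P (9.09%, below the 14.4% of all genes). In B against L 3 were higher and 2 lower (15.2%, against 8.07% of all genes). *Myo5c*, a class V myosin of secretory epithelia that binds Rabs, was at 9.82, 8.84, 9.87 and 9.50 in B, 7.93, 7.76 and 8.55 in L, and 7.94, 8.28 and 8.49 in P. B was above the rest, with B2 nearest. The difference was 1.42 ± 0.29 from L (adjusted p = 0.020, lost without B1, L1 or L2 at 0.055 to 0.11) and 1.27 ± 0.27 from P (adjusted p = 0.017, lost without P1 or P2 at 0.054 to 0.080). *Rilp*, the Rab7 effector that recruits dynein, was higher in B than P by 0.81 ± 0.18 (adjusted p = 0.019, lost without any one of the P arrays at 0.056 to 0.084), and *Rilpl1*, which binds phosphorylated Rab8 and Rab10, by 1.27 ± 0.29 (adjusted p = 0.021, lost without B1 or P1 at 0.052 to 0.057). In B against L *Exoc6*, the exocyst subunit that binds Rab11 (-0.77, adjusted p = 0.030), and *Micall2*, which binds Rab13 (-0.80, adjusted p = 0.041), were lower. *Vps35l*, a retriever subunit kept on this list, was higher (0.82, adjusted p = 0.030), as was *Rab11fip4*, a Rab11 effector not detected on any L array (at least 1.73-fold, adjusted p = 0.045). These calls were lost without B1 or any one of the L arrays, among others (adjusted p = 0.054 to 0.16), and those of *Micall2* (adjusted p = 0.074) and *Rab11fip4* (adjusted p = 0.061) with the replicate block as well. The *Vps35l* call also failed in the authors' processed values (0.33, adjusted p = 0.056). Taking the brightest probe for each gene, neither *Vps35l* (0.27, adjusted p = 0.28) nor *Micall2* (-0.40, adjusted p = 0.17) passed, and *Rab3a* missed the threshold against L (adjusted p = 0.051). The single call in L against P was *Unc13d*, a Rab27a effector in granule exocytosis, at 8.50, 8.31 and 8.43 in L and 7.38, 7.67 and 7.36 in P (0.94 ± 0.15, adjusted p = 0.039), and it was lost without any one array other than P2 (adjusted p = 0.076 to 0.18).

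Of the Rab kinases and their phosphatase, *Ppm1h*, the phosphatase that removes LRRK2 phosphates from Rabs, had the largest difference of the Rab cycle lists in B against P. It was at 8.83, 9.12, 8.06 and 8.90 in B, 7.58, 8.24 and 8.05 in L, and 6.55, 7.09 and 6.21 in P. B and L both lay wholly above P, while B3 fell among the L values. B exceeded P by 2.11 ± 0.29 (4.31-fold, adjusted p = 0.0037). This call held under all 16 alternatives, at differences from 1.21 in the authors' processed values to 2.35. B exceeded L by 0.77 ± 0.27 (adjusted p = 0.11), and L exceeded P by 1.34 ± 0.25 (adjusted p = 0.061).

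Choices of processing also ended some calls of the genes above. With no filter on dim probes, *Rab25*, *Rab3a*, *Rabggta*, *Rilpl1*, *Rin1*, *Tbc1d8* and *Tbc1d9b* did not pass in B against P (adjusted p = 0.050 to 0.094). Nor did *Rab3a*, *Rab15*, *Tbc1d2*, *Myo5c*, *Micall2* and *Rab11fip4* in B against L (adjusted p = 0.051 to 0.095), or *Unc13d* in L against P (adjusted p = 0.12), at the same differences. Under median scaling *Trappc1* was lost in B against P (adjusted p = 0.096), and *Rab3a*, *Dennd6b* and *Ric1* in B against L (adjusted p = 0.053 to 0.070). In the authors' processed values *Tbc1d8* and *Tbc1d9b* did not pass in B against P (adjusted p = 0.072 to 0.13), nor did *Rab3a*, *Dennd6b* and *Rab11fip4* in B against L (adjusted p = 0.057 to 0.099). With all 10 arrays in 1 model, *Rab15* in B against L (adjusted p = 0.094) and *Unc13d* (adjusted p = 0.23) were not called.

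**Figure D5:**
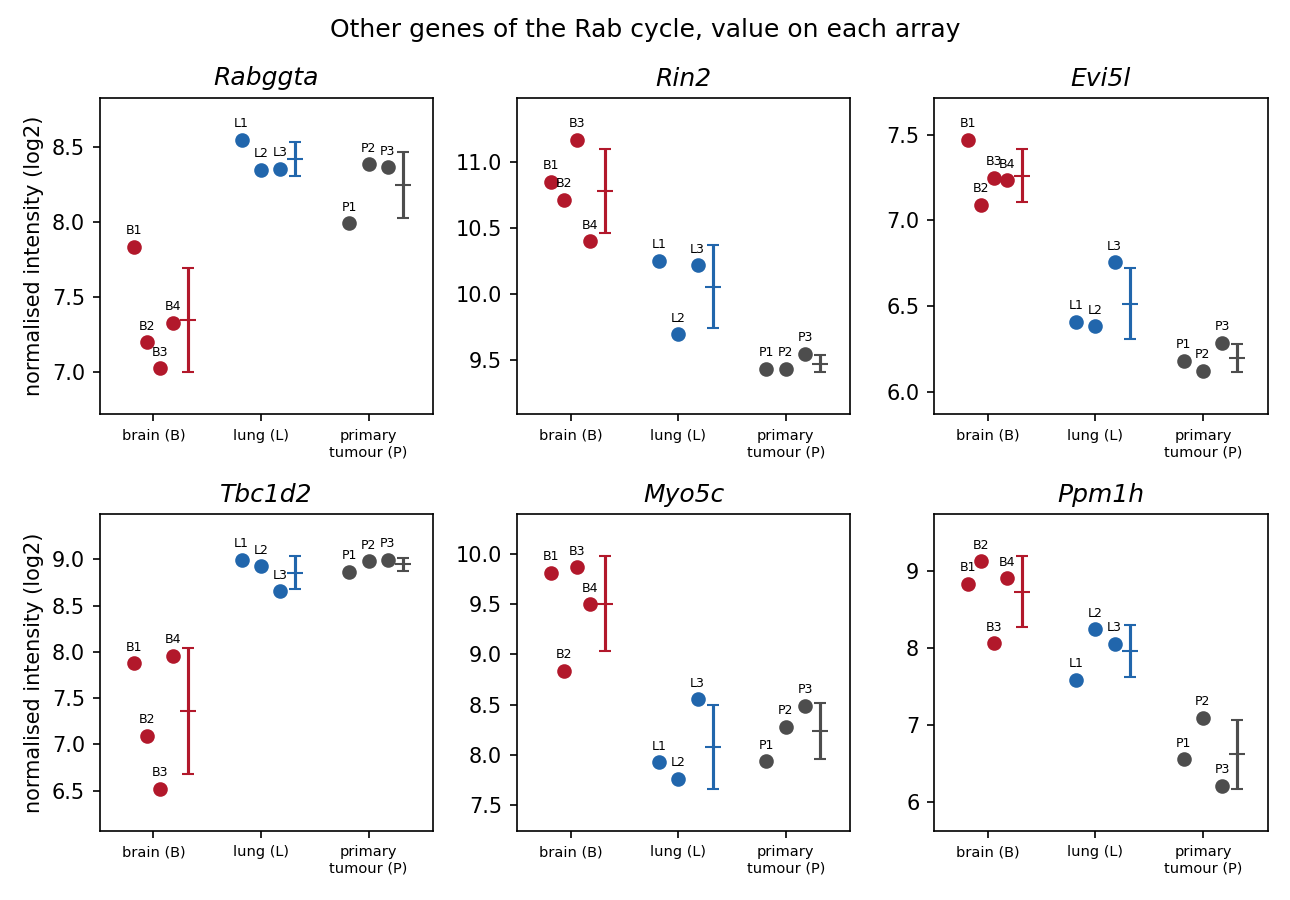
Normalised log2 intensity of 6 called genes that act on Rabs, with 1 point per array, B left, L middle and P right, and bars for mean ± SD. The B points of *Rabggta* and *Tbc1d2* lie below all others, those of *Rin2*, *Evi5l* and *Myo5c* above, and for *Ppm1h* the L points lie between B and P, with B3 among them.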

How the data were processed

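Total RNA was hybridised to Illumina MouseWG-6 v2.0 BeadChips. Per the file headers, the deposited table holds the mean bead intensity of 45281 probes and a detection p-value against negative controls for each of the 10 arrays, not normalised. The authors exported it from GenomeStudio and also deposited log2-like values from lumi (variance-stabilizing transformation and robust spline normalization) for 17550 detected probes. These were used as an alternative. Their column medians were 8.26 to 8.28, they correlated with the log2 intensity of the same array at 0.991 to 0.997 over probes, with a slope of 0.97 to 1.05 above the dim range, and so were read as uncentred and log2 in scale and direction.

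Intensities were corrected and quantile-normalised with neqc (limma 3.58.1, R 4.3.3, offset 16). Probes were named from the platform annotation, with 34885 having 1 symbol, 18 several and 10378 none. Each comparison used the arrays of its 2 groups, genes with a probe detected there on 1 or more arrays, at a detection p no higher than 0.01, and the detected probe of largest interquartile range. Differences were tested two-sided with lmFit and eBayes, adjusted by Benjamini-Hochberg over all genes tested and called under 0.05. The study's methods used a two-sample t-test with a random variance model, tried as an alternative. With 3 or 4 arrays a group, the number of arrays limits the precision. The fit was tested on simulated data.

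Same-numbered arrays of B and L deviated together from their group means (correlations over genes of 0.14 to 0.21 in 3 of 3 pairs, against -0.11 to 0.06 for different numbers), which by a threshold of 0.1 pairs them; GEO's labels give no reason for this. By the same numbers, B and P (-0.12 to 0.04) and L and P (-0.10 to 0.09) were not paired. With different numbers, however, 2 of 9 pairs of B and P (up to 0.152) and 1 of 6 of L and P (up to 0.103) also exceeded 0.1. Deviations from a group mean cancel across the group, so these correlations are not independent of each other. Called Rab genes were named, as were uncalled ones that are paralogs of these, are among the 5 largest differences of a comparison, have disagreeing probes or were not detected. Up to 4 called genes of each other list were named per comparison, except that every called effector was named in B against L. The members and lists were chosen with earlier results of these data known. Alternatives are given in the closing section.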

Additional observations from a re-analysis of the deposited data

Results flagged for a closer look

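*Rab4b*, which acts in fast recycling from early endosomes, had 1 B array apart from the others. B2 was lowest at 6.85, while the nearest of the other B arrays was at 7.22 and the farthest at 7.24, so that the gap was 0.94 of the range of the group. This was 1 of 45 Rab genes examined in the 4 B arrays, and chance sets apart about 1 group in 20. The gene did not pass in any comparison.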

How the results depend on the processing

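No difference of a called gene changed direction under the alternatives run. Sizes did change with the processing. In the authors' processed values, B minus P was -1.48 for *Rab25*, 0.84 for *Rab3d*, 0.60 for *Rab6b* and 0.52 for *Rab3a*, each smaller in size than in the report. *Rab31* stayed at 0.68. Of the alternatives that left all arrays in, several changed the number of Rab genes called in B against P, 5 in the report. It became 7 in the authors' processed values, 7 with an offset of 50 and 6 with the brightest probe of each gene. It was 8 with no background correction, 3 with no filter on dim probes, 8 with probes detected on every array of a group and 10 with all 10 arrays in 1 model. In each of these settings with 7 or more calls, *Rab33b* was called higher and *Rab6a*, by the probe standing for it, lower. The report's fit gave *Rab33b* a difference of 0.65 (adjusted p = 0.059). The number called was 1 (*Rab3d*) at an unadjusted p under 0.001 with limma and 1 with the methods' t-test. For B against L, 4 in the report, it was 2 with median scaling, 2 with no filter, and 1 (*Rab25*) at an unadjusted p under 0.001 with limma and 1 with the methods' t-test. For L against P, 0 in the report, it was 1 (*Rab3d*) with no background correction and 1 with an offset of 50. Leaving out 1 array gave 1 to 9 calls in B against P (1 without P1, 9 without B4), 0 to 5 in B against L (0 without L2) and 0 to 1 in L against P (1 without P2). The cause of these changes was not tested. With the replicate number as a block, which the data do not pair in the comparisons with P, 5 Rab genes were called in B against P (*Rab17*, *Rab25*, *Rab3d*, *Rab6b* and *Rab7b*) and 0 in L against P. In B against L the paired fit called 4, and it changed no Rab call beyond those given in the report. The blocked fits of B take no difference from B4, whose number no L or P array bears, so they also leave out an array. Of the differences of called genes under the alternatives, 334 kept their side of the threshold and 176 no longer passed. A block by slide was not run, as the slide of each array was not given in the sources used here. Dim probes such as those of *Rab7b*, *Rab15* and *Rab17* lie near background, where levels are bounds.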
